A study of Cocos nucifera and Zingiber officinale with 11 samples.

Results

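The small RNAs of exosome-like nanoparticles from grapefruit were compared with those from orange, the citrus fruits of the series. Every miRNA name with a value above 0 in either library was taken, which gave 124 of the 418 names listed over the 11 plants of the study. Grapefruit was labelled as the fruit of Citrus x paradisi and orange as the fruit of Citrus reticulata. Both fruits were peeled, the flesh was pressed by hand through gauze, and the edible plant-derived exosome-like nanoparticles (EPDELNs) were pelleted from the juice by differential centrifugation before RNA extraction with TRIzol-LS and Illumina sequencing. Each plant gave 1 library, so no difference below has a replicate check, no test was made, and plant, fruit batch, preparation and library cannot be told apart. Levels are in RPM, the reads of a name scaled to a fixed total per library, the intervals are 95% intervals that cover counting error only, and PCR copies were not removed by molecular identifiers.

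A plant miRNA is cut from a hairpin as a short duplex, one strand of which is loaded into an Argonaute protein and guides it to a matching messenger RNA. The strands are named 5p and 3p after the arm of the hairpin they come from. Many families in these libraries are shared by flowering plants, and a number of them act on transcription factors, while others are known from citrus. The names were given by the closest mature sequence in miRBase, so the code at the front of a name is the species of that reference and not of the fruit. The code csi stands for Citrus sinensis, sweet orange, whereas the label of the orange library, Citrus reticulata, is the species name of mandarin. A csi name is therefore a match to a related citrus reference and not to the labelled species of either fruit.

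The 15 csi names that either fruit listed were in none of the lists of the 9 other plants, so names matched to a citrus reference went with the citrus labels. The remaining csi name of the table, csi-MIR-3946, was listed in pear at 6.48 RPM and in neither citrus library. Over all 124 names, 15 listed in both fruits, 6 in grapefruit alone and 22 in orange alone were in no other list, csi names included. Names of MIR-482 with other codes were listed elsewhere, gma-MIR-482d-3p in 6 other libraries, so there the name and not the family was confined to citrus. The csi sequences that the results turn on are shown as listed in grapefruit, with bases 2 to 8, the seed, in capitals.
csi-MIR-482a-3p: tCTTCCCTatgcctcccattcc
csi-MIR-482b: tCTTGCCCacccctcccattcc
csi-MIR-482c: tTCCCTAGtccccctattccta
csi-MIR-3952: tGAAGGGCctttctagagcac
csi-MIR-3954: tTGGACAGagaaatcacggtc
csi-MIR-473: aCTCTCCCtcaagggcttcgc
csi-MIR-477b: aCTCTCCCtcaagggcttctct
csi-MIR-477a: aCCTCCCTcgaaggcttcca
csi-MIR-473 and csi-MIR-477b share their seed and their first 19 bases, and part only at the 3′ end. csi-MIR-482a-3p and csi-MIR-482b share 4 bases at the 5′ end, and their seeds differ.

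Some conserved sequences that separated the fruits, led both or form a pair compared below follow with the seed again in capitals. They are as listed in grapefruit, and apart from gma-MIR-156n orange listed the same bases.
gma-MIR-166h-3p: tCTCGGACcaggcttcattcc
aly-MIR-166h-3p: tCGGACCAggcttcattcccc
mtr-MIR-159a: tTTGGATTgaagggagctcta
mtr-MIR-396a-5p: tTCCACAGctttcttgaactt
gma-MIR-156n: tTGACAGAagagagtgagca
mtr-MIR-168c-5p: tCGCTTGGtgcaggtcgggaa
mtr-MIR-168c-3p: cCCGCCTTgcatcaactgaat
The MIR-166h names are called 2 registers here: gma-MIR-166h-3p starts 2 bases before aly-MIR-166h-3p and shares 19 bases with it. Reads were matched without a genome, so whether both forms come from the same hairpin is not known.

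A separate set of names, those of 11 miRBase families, was taken to resemble pieces of tRNA or ribosomal RNA. They were treated as fragment-like names throughout, but no alignment to tRNA or ribosomal RNA sequences was made. They are shown because their level decides how every other share reads. A mature tRNA ends in CCA, and those letters are in capitals where a listed sequence ends in them.
ptc-MIR-6478 in both fruits: ccgaccttagctcagttggca
bdi-MIR-5054 in both fruits: ccccacggtgggcgCCA
ath-MIR-8175 in grapefruit: ccccggcaacggcgCCA
ath-MIR-8175 in orange: cgatccccggcaacggcgCCA
osa-MIR-5072 in grapefruit: ccccagtggagtcgCCA
osa-MIR-5072 in orange: tccccagtggagtcgcc
cpa-MIR-8155 in grapefruit: acctggctctgataCCA
cpa-MIR-8155 in orange: aacctggctctgataCCA
osa-MIR-5077 in grapefruit: gtttcacgtcgggttcaCCA
osa-MIR-5077 in orange: cgtttcacgtcgggttcaCCA

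The grapefruit library listed 65 names of 43 families, and the orange library 111 names of 52 families. The RPM values of grapefruit rested on 1241721 reads, against 4836597 reads in orange, as recovered from the step between values. The paper gave grapefruit more raw reads than orange but fewer high quality reads, and the lowest high quality ratio of all its samples. Reads with a miRNA name numbered 259013 in grapefruit, or 20.9% of the reads behind its RPM, against 187403 in orange, or 3.87%. The smallest listed value was 5 reads in each, which is 4.03 RPM in grapefruit and 1.03 RPM in orange. A name that is not listed may therefore have had fewer than 5 reads, and no fold was formed against it.

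The fragment-like names made the largest difference in RPM between the fruits. They held 87.6% of the summed level in grapefruit (Wilson interval 87.5–87.8), against 4.09% in orange (4.00–4.18), and summed to 182814 RPM in grapefruit, against 1585 RPM in orange. Grapefruit had the highest fragment-like share of the 11 libraries. They took 7 of the 10 highest places in grapefruit and 1 in orange, that of ptc-MIR-6478. Grapefruit listed 10 such names and orange 8, all of which grapefruit also listed, and MIR-894 was listed in neither.

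Each of the 8 shared fragment-like names was higher in grapefruit by RPM, by 12.4-fold for gma-MIR-6300 up to 1665-fold for osa-MIR-5072. ptc-MIR-6478 had 74726 RPM in grapefruit, against 1228 RPM in orange (60.9-fold). bdi-MIR-5054 had 61883 RPM in grapefruit, against 84.2 RPM in orange (735-fold). The listed sequences of these names, the most abundant ones, were base for base the same in both fruits, while the RPM also holds the other reads matched to the name.
For ath-MIR-8175 the values were 10576 RPM in grapefruit and 14.1 RPM in orange, for osa-MIR-5072 they were 9986 and 5.996 RPM, and for cpa-MIR-8155 they were 9637 and 7.24 RPM. osa-MIR-5077 had 7847 RPM in grapefruit, against 170 RPM in orange, and peu-MIR-2916 had 7504 RPM in grapefruit, against 58.7 RPM in orange. The folds thus spread widely within the set, and ath-MIR-8175, osa-MIR-5072 and bdi-MIR-5054 were lower in orange than in any of the other 10 libraries, all of which listed them. bdi-MIR-5059, with 434 RPM, and gma-MIR-5368, with 11.3 RPM, were listed in grapefruit alone of the citrus fruits. Grapefruit was the highest of the 11 libraries for 8 of its 10 fragment-like names, with gma-MIR-6300 and gma-MIR-5368 the exceptions.

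**Figure D1:**
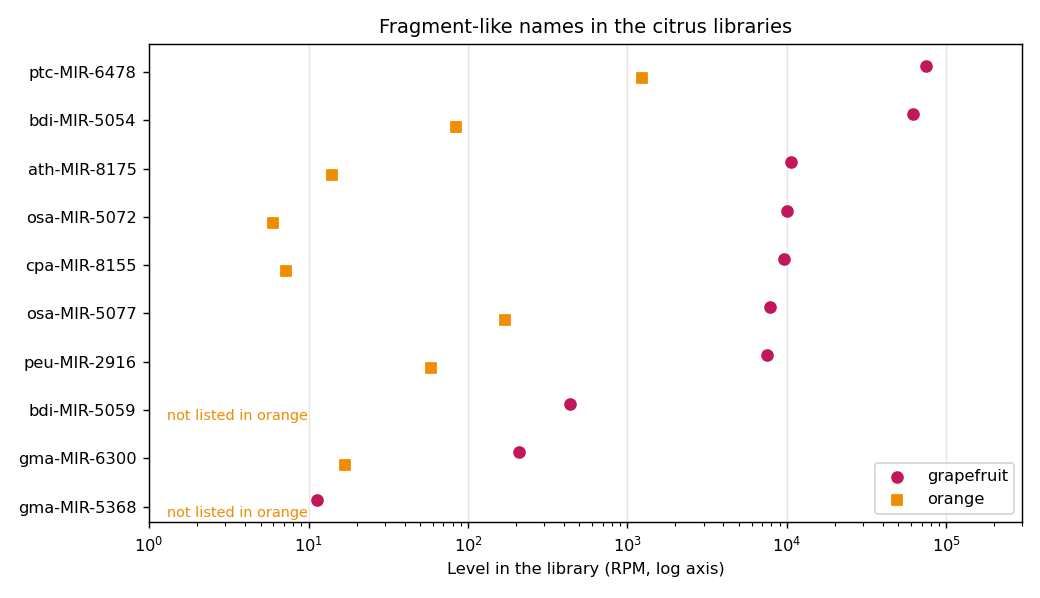
Level of each fragment-like name in RPM on a log axis, with grapefruit as circles above orange as squares, 1 library each and no error bars. All 8 names that both fruits listed lie further right in grapefruit, from 210 against 16.95 RPM for gma-MIR-6300 to 9986 against 5.996 RPM for osa-MIR-5072.

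The fragment-like names also shaped the lengths of the listed sequences. Of the 10 fragment-like sequences of grapefruit 6 ended in CCA and held 48.1% of its level, against 4 of 8 and 0.711% in orange. Sequences of 20 to 22 nt, the usual length of plant miRNAs, held 55.5% of the level in grapefruit (Wilson 55.3–55.7), against 99.2% in orange (99.1–99.2). Those of 17 nt held 44.2% in grapefruit and 0.241% in orange. Without the fragment-like names 20 to 22 nt held 98.9% in grapefruit and 99.4% in orange, and what was left was a split between 21 nt, with 82.2% in grapefruit and 69.9% in orange, and 22 nt, with 12.4% in grapefruit and 27.5% in orange. The 22 nt sequences include the MIR-482 names that target disease resistance genes.

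Because of this difference, the names other than the fragment-like ones were compared by their share of the remaining level, the summed RPM without fragment-like names. That level was 25778 RPM over 55 names in grapefruit, against 37162 RPM over 103 names in orange, a ratio of 0.694. Both fruits listed 44 of these names. The share of the remaining level was at least 2-fold higher in grapefruit for 15 of the 44 (34.1%) and at least 2-fold higher in orange for 18 (40.9%), with 11 in between. Past 5-fold the counts were 4 (9.09%) in grapefruit and 6 (13.6%) in orange. The median ratio, grapefruit over orange, was 0.699.
The counts turn on the scale, and so does which fruit has more of them. Scaled to the median ratio 18 of the 44 were 2-fold higher in grapefruit and 12 in orange. By RPM as deposited 9 of the 44 were 2-fold higher in grapefruit and 23 in orange, and by share of the whole level 0 and 38, with the median ratio at 0.485 by RPM and 0.0900 by share of the whole level. The counting interval of the ratio lay off 1 for 40 of the 44 names, the exceptions being mtr-MIR-396b-3p, aau-MIR-168, ath-MIR-167b and ath-MIR-395a. On each of these scales the order of the names is the same and only the common factor moves. Across the 44 names the shares in the fruits had a Spearman correlation of 0.752, given as a description, since the names share libraries and are no replicates.

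**Figure D2:**
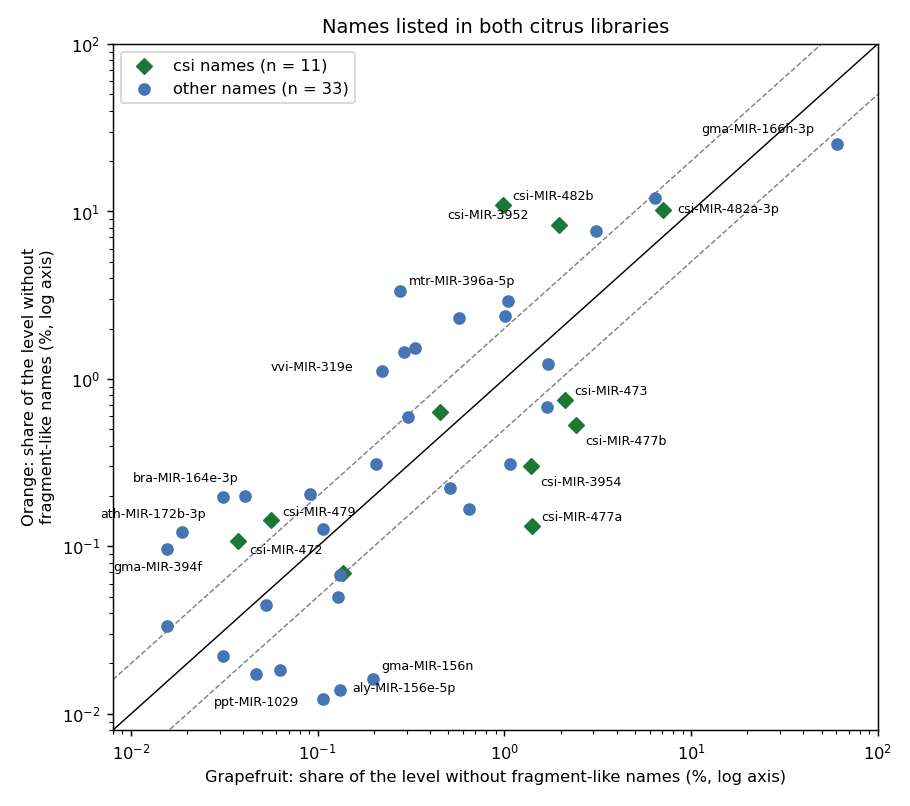
Share of the level without fragment-like names in grapefruit (x axis) against orange (y axis), both in % on log axes, for the 44 names listed in both, with csi names as green diamonds. The solid line marks equal shares and the dashed lines 2-fold, and csi-MIR-482b and mtr-MIR-396a-5p lie far on the orange side while csi-MIR-477a and gma-MIR-156n lie far on the grapefruit side.

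MIR-166, which acts on the HD-ZIP III transcription factors of meristems and leaf polarity, led the remaining level in both fruits. gma-MIR-166h-3p had 15628 RPM in grapefruit, against 9355 RPM in orange, and held 60.6% and 25.2% of the remaining level (ratio 2.41, counting interval 2.37–2.45). The form that starts 2 bases later, aly-MIR-166h-3p, had 798 RPM in grapefruit, against 2838 RPM in orange (ratio of shares 0.405, 0.380–0.432). The family as a whole held 64.0% of the remaining level in grapefruit and 33.5% in orange. The forms thus moved in opposite directions, and a single one of them decides much of the scale in grapefruit. With gma-MIR-166h-3p also taken out, 19 of the other 43 names were 2-fold higher in grapefruit and 11 in orange.

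The early form of MIR-166h was 19.6 times the late form in grapefruit (interval 18.4–20.9), against 3.30 times in orange (3.23–3.36). In each of the 8 other libraries that listed both, the late form was the higher one, with early over late between 0.00277 in pear and 0.774 in Hami melon. The citrus fruits were thus the libraries in which the early form led, and grapefruit more so than orange. This ratio does not depend on the scale, since both forms come from 1 library.

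The csi names took a smaller part of the grapefruit library. Grapefruit listed 11 and orange 15, and every csi name of grapefruit was also in orange. They summed to 4644 RPM in grapefruit, against 11970 RPM in orange, which is 18.01% (17.6–18.4) and 32.2% (32.0–32.4) of the remaining level, or 2.23% and 30.9% of the whole level. Of the 11 shared csi names 4 were 2-fold higher in grapefruit, namely csi-MIR-473, csi-MIR-477a, csi-MIR-477b and csi-MIR-3954, and 4 were 2-fold higher in orange, namely csi-MIR-482b, csi-MIR-3952, csi-MIR-472 and csi-MIR-479. That is 36.4% in each direction, near the 34.1% and 40.9% over all 44 shared names. By RPM the counts were 3 and 6, since csi-MIR-473 (ratio 1.96) was then within 2-fold and csi-MIR-482a-3p and csi-MIR-482c were past it toward orange.

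The MIR-482 and MIR-472 families act on NBS-LRR genes, the receptors of plant disease resistance. csi-MIR-482a-3p had 1816 RPM in grapefruit, against 3815 RPM in orange, or 7.04% and 10.3% of the remaining level (ratio 0.686). csi-MIR-482b had 254 RPM in grapefruit, against 4053 RPM in orange, or 0.984% and 10.9% of the remaining level (ratio 0.0902, 0.0805–0.101). The members of this family thus differed in how far they moved. csi-MIR-482b stood at 0.140 times csi-MIR-482a-3p in grapefruit (0.124–0.157), against 1.06 times in orange (1.04–1.08), a comparison that no scale can change.
csi-MIR-482c had 117 RPM in grapefruit, against 237 RPM in orange (ratio 0.712), and csi-MIR-472 had 9.66 RPM in grapefruit, against 39.9 RPM in orange (ratio 0.349). csi-MIR-482a-5p, the opposite strand of the hairpin, had 35.4 RPM in grapefruit and 25.6 RPM in orange (ratio 1.99). csi-MIR-482b and csi-MIR-472 were past 2-fold in orange and the other csi members of the group were within it. The group that acts on resistance genes, with all its names, held 8.83% of the remaining level in grapefruit and 22.1% in orange (ratio 0.399). Of the csi reads 47.8% were MIR-482 in grapefruit and 67.9% in orange.

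The MIR-473 and MIR-477 names went the other way. csi-MIR-477b had 625 RPM in grapefruit, against 198 RPM in orange (ratio of shares 4.56, 4.14–5.02). csi-MIR-473, whose first 19 bases are the same, had 544 RPM in grapefruit, against 277 RPM in orange (2.83, 2.57–3.10). csi-MIR-477a had 363 RPM in grapefruit, against 49.2 RPM in orange (10.6, 9.07–12.5), the farthest of all csi names on the grapefruit side. All were higher in grapefruit by RPM as well as by share, and together they summed to 1532 RPM in grapefruit, against 524 RPM in orange. By share of the whole level only csi-MIR-477a, at a ratio of 1.37, was not lower in grapefruit. The other shared csi name put in this group, csi-MIR-479, had 14.5 RPM in grapefruit, against 53.8 RPM in orange (0.389).

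csi-MIR-3952 and csi-MIR-3954 were described in citrus, and the second is known there to act on NAC transcription factors. csi-MIR-3952 had 506 RPM in grapefruit, against 3091 RPM in orange, where it was the fifth of the remaining names (1.96% and 8.32%, ratio 0.236). csi-MIR-3954 had 360 RPM in grapefruit, against 112 RPM in orange (ratio 4.61, 4.06–5.24). These names therefore lay on opposite sides of the comparison. The csi names that orange alone listed were low, with csi-MIR-172a-5p at 12.2 RPM, csi-MIR-3951 at 3.51 RPM, csi-MIR-530a at 1.45 RPM and csi-MIR-3947-5p at 1.24 RPM. The last 3 lie under the smallest value that grapefruit could list.

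Beside the 11 csi names, 4 names without the csi code were listed in both citrus fruits and in none of the 9 other plants. ath-MIR-827, a regulator of phosphate supply, had 147 RPM in grapefruit, against 856 RPM in orange (ratio of shares 0.247). bra-MIR-164e-3p had 8.05 RPM in grapefruit, against 73.4 RPM in orange (0.158), and ath-MIR-167b 8.05 and 8.27 RPM (1.40, 0.626–2.86). gra-MIR-1446 had 16.1 RPM in grapefruit, against 6.82 RPM in orange (3.40). Other codes of MIR-827, MIR-164 and MIR-167 were listed in other plants, so it is the name and not the family that was confined to citrus in those cases.

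Of the 44 names 33 had no csi code, and by share 11 of these were at least 2-fold higher in grapefruit and 14 in orange. The 44 names together gave 15 (34.1%) and 18 (40.9%). By RPM as deposited the counts over the 44 were 9 and 23. On the orange side, mtr-MIR-396a-5p, which acts on growth-regulating factors, had 70.9 RPM in grapefruit, against 1249 RPM in orange, the lowest ratio of all 44 names (0.0818, 0.0655–0.101). mtr-MIR-159a, which acts on GAMYB factors, had 1662 RPM in grapefruit, against 4486 RPM in orange (6.45% and 12.1%, ratio 0.534, within 2-fold). vvi-MIR-319e, of the family that acts on TCP factors of leaf growth, had 57.2 RPM in grapefruit, against 417 RPM in orange (0.198, 0.154–0.250). The shift of mtr-MIR-396a-5p was thus larger than that of mtr-MIR-159a, whose interval (0.510–0.559) lies well apart.
ath-MIR-167d, which acts on auxin response factors, had 268 RPM in grapefruit, against 1089 RPM in orange (0.355). ath-MIR-172b-3p, a regulator of AP2 factors in flowering, had 4.83 RPM in grapefruit, against 45.3 RPM in orange (0.154). gma-MIR-394f, which acts on an F-box gene, had 4.03 RPM in grapefruit, against 35.8 RPM in orange (0.162). These last values rest on 6 and 5 reads in grapefruit, and their intervals were wide, 0.0558–0.340 and 0.0520–0.386.
mtr-MIR-319d-3p followed vvi-MIR-319e, with 10.5 RPM in grapefruit, against 74.0 RPM in orange (0.204). ath-MIR-164b-5p, which acts on NAC factors, had 23.4 RPM in grapefruit, against 76.3 RPM in orange (0.441). aly-MIR-167b-3p and mtr-MIR-396b-3p, the opposite strands of their families, were within 2-fold (0.664 and 0.837).

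On the grapefruit side were MIR-166, given above, and the groups of the tasiRNA and auxin receptor regulators (ratio 2.24), the GRAS regulators (1.51) and the squamosa regulators (1.43). gma-MIR-156n and aly-MIR-156e-5p belong to the family that acts on SQUAMOSA promoter-binding factors and sets the age of the shoot. gma-MIR-156n had 50.7 RPM in grapefruit, against 5.996 RPM in orange, the highest ratio of the 44 (12.2, 7.74–19.6), and aly-MIR-156e-5p had 33.8 RPM in grapefruit, against 5.17 RPM in orange (9.43, 5.62–16.2). The whole squamosa group was nearly level by RPM, with 84.6 RPM of 2 names in grapefruit and 85.0 RPM of 9 names in orange, where names of MIR-157 and MIR-535 joined it. ath-MIR-390a-5p, which starts the trans-acting siRNAs against auxin response factors, had 435 RPM in grapefruit, against 253 RPM in orange (2.48). The GRAS regulators of MIR-171 were also higher by share, with gma-MIR-171k-3p at 132 RPM in grapefruit and 82.9 RPM in orange (2.30) and mtr-MIR-171h at 12.1 RPM in grapefruit and 6.41 RPM in orange (2.72). ppt-MIR-1029 had 27.4 RPM in grapefruit, against 4.55 RPM in orange (8.68, 4.93–15.6), and its grapefruit sequence of 17 nt ended in CCA like the fragment-like ones.

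The regulators of the silencing machinery itself were split. MIR-168 acts on AGO1, MIR-162 on DCL1 and MIR-403 on AGO2. mtr-MIR-168c-5p had 443 RPM in grapefruit and 459 RPM in orange (ratio of shares 1.39), and mtr-MIR-168c-3p had 278 RPM in grapefruit, against 115 RPM in orange (3.48). mtr-MIR-162 had 74.9 RPM in grapefruit, against 540 RPM in orange (0.200), and ath-MIR-403-3p had 259 RPM in grapefruit, against 886 RPM in orange (0.422). The last member, aau-MIR-168, is described with its sequences. The group as a whole held 4.15% of the remaining level in grapefruit and 5.43% in orange.

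Regulators of phosphate and sulphate supply were fewer and lower in grapefruit. The group of MIR-395, MIR-399 and MIR-827, which act in sulphate and phosphate supply, had 3 names in grapefruit, against 14 in orange. Over all names other than fragment-like, grapefruit listed 55 and orange 103. Some of the orange names of the group lay under 4.03 RPM, the smallest value that grapefruit could list. The group held 0.600% of the remaining level in grapefruit, against 3.49% in orange (ratio 0.172). MIR-399 was listed under 1 name at 4.03 RPM in grapefruit, against 9 names that summed to 222 RPM in orange. mtr-MIR-398c, which acts on copper superoxide dismutases, had 85.4 RPM in grapefruit, against 572 RPM in orange (0.215). zma-MIR-398b-5p, the other shared member of the copper group, lay on the opposite side with 167.5 RPM in grapefruit, against 62.2 RPM in orange (3.88), and the group as a whole had a ratio of 0.566. Over all groups, the regulators of growth-regulating factors differed most toward orange among those with 50 or more reads in each fruit (0.447% and 3.52%, ratio 0.127), and the group of MIR-473, MIR-477, MIR-479 and MIR-530 most toward grapefruit among the named ones (5.998% and 1.56%, ratio 3.85).

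**Figure D3:**
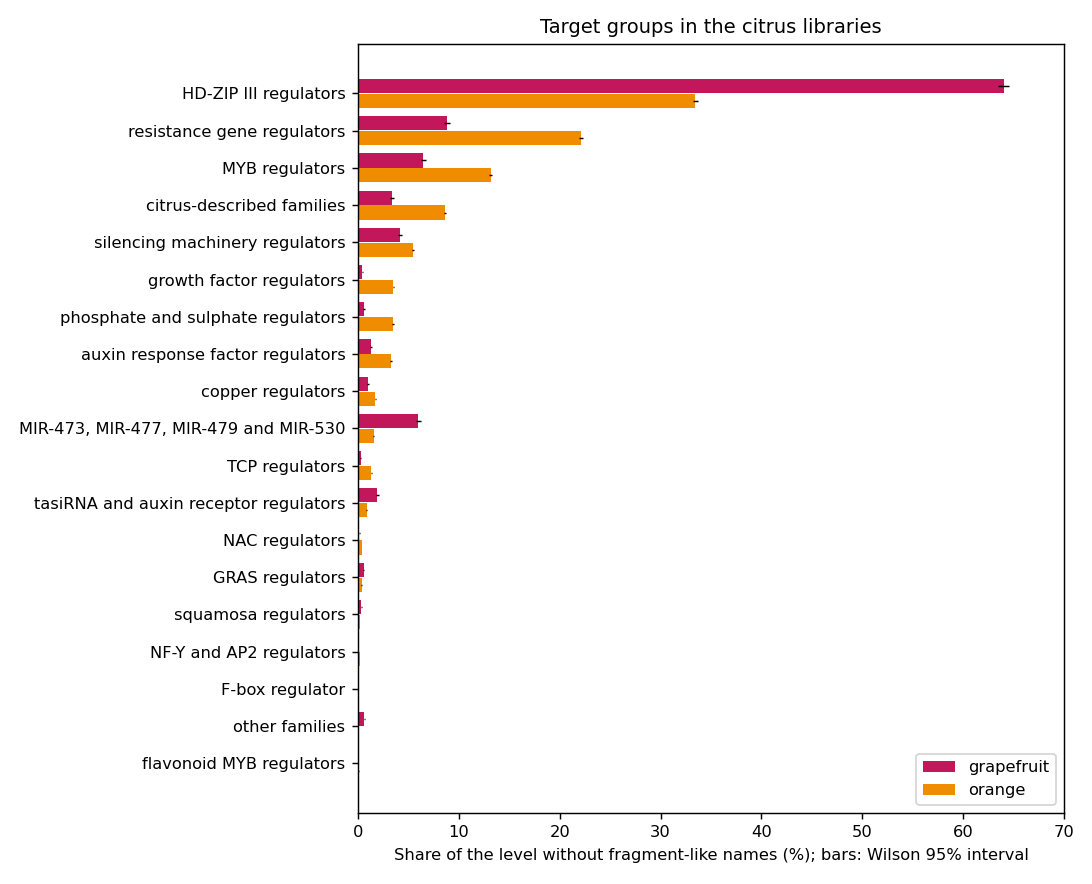
Share of the level without fragment-like names (x axis, %) for each group of miRNA families, grapefruit bars above orange bars, with Wilson 95% intervals as lines and no bar where no name was listed. The HD-ZIP III regulators hold 64.0% in grapefruit and 33.5% in orange, and the resistance gene regulators 8.83% in grapefruit and 22.1% in orange.

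The arms of a hairpin were compared within each library, where the ratio is free of the scale. Of 9 pairs of arms or registers 8 had counting intervals that did not overlap between the fruits. The ratio of the usual guide arm to the other arm was lower in grapefruit in 5 of them. For MIR-168c the 5p arm was 1.59 times the 3p arm in grapefruit (1.39–1.83), against 3.98 times in orange (3.63–4.38). For MIR-482a the 3p arm was 51.2 times the 5p arm in grapefruit (38.05–70.7), against 149 times in orange (125–179). For MIR-396 the 5p arm was 2.59 times the 3p arm in grapefruit (1.72–3.97), against 26.5 times in orange (23.2–30.4). MIR-167 went the same way, with the 5p arm 5.05 times the 3p arm in grapefruit and 9.44 times in orange. For MIR-398 the 3p arm was 0.510 times the 5p arm in grapefruit (0.399–0.647), against 9.19 times in orange (8.16–10.4). The 5p arm of MIR-398 was thus the higher one in grapefruit and the lower one in orange. Its sequence (zma-MIR-398b-5p) was a run of 17 nt in grapefruit and 16 nt in orange, shorter than a usual miRNA.
The 3 that were higher in grapefruit were the MIR-166h registers given above, MIR-164, whose 5p arm was 2.90 times the 3p arm in grapefruit (1.37–6.67) and 1.04 times in orange (0.896–1.21), and MIR-166, whose 3p forms were 210 times mtr-MIR-166g-5p in grapefruit (172.3–259) and 55.3 times in orange (52.1–58.8). MIR-390 was the only pair whose intervals overlapped, with 13.2 in grapefruit (9.58–18.6) and 13.6 in orange (11.0–17.1). Some pairs join names with different reference codes, so they stand for families and need not be arms of 1 hairpin.

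**Figure D4:**
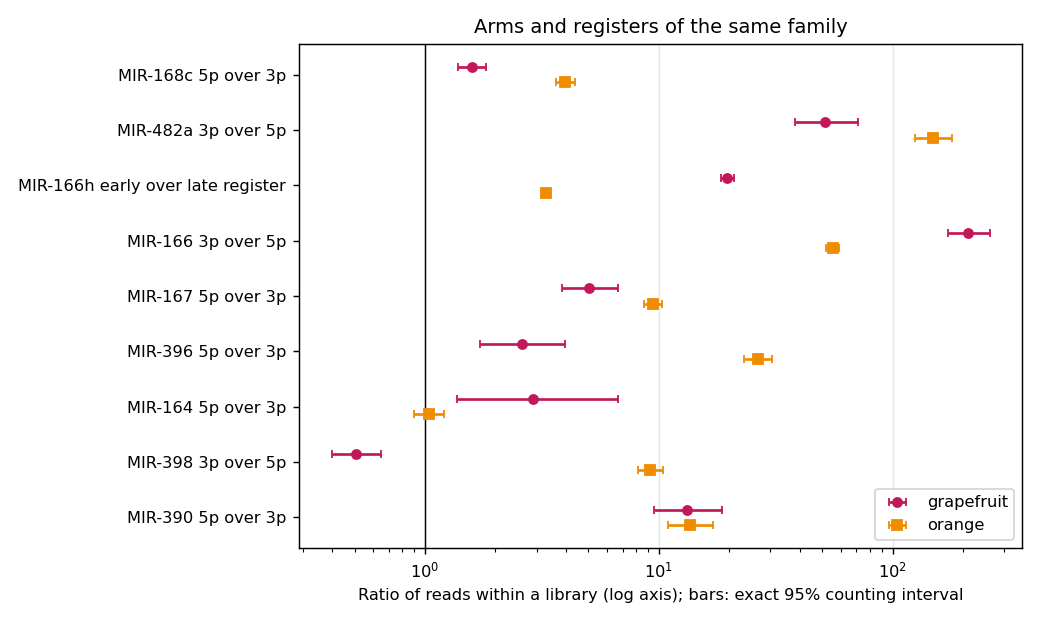
Ratio of reads between arms or registers of a family within a library (x axis, log scale), grapefruit circles above orange squares, with exact 95% counting intervals. MIR-396 and MIR-398 are the pairs where orange lies farthest right of grapefruit, and only the MIR-390 intervals overlap.

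The listed sequence, the most abundant one under a name, was the same in both fruits for 35 of the 52 shared names. It was the same for 33 of the 44 names other than the fragment-like ones and for 2 of the 8 fragment-like names, ptc-MIR-6478 and bdi-MIR-5054. Of the 17 that differed, 12 were longer in orange, 3 were longer in grapefruit and 2 were shifted at the same length. In 16 only the ends differed, 9 of them at the 3′ end alone, 4 at the 5′ end alone and 3 at both. Among csi names csi-MIR-473, csi-MIR-477a, csi-MIR-3954 and csi-MIR-472 were longer in orange and the other 7 were the same.
The forms from orange are given with the seed in capitals, to be set beside those from grapefruit above.
csi-MIR-473 in orange: aCTCTCCCtcaagggcttcgcc
csi-MIR-477a in orange: aCCTCCCTcgaaggcttccaa
csi-MIR-3954 in orange: tTGGACAGagaaatcacggtca
csi-MIR-472 in orange: tCTTTCCCacacctcccatccc
csi-MIR-472 in grapefruit: tTCCCACAcctcccatccc
The first 3 were longer at the 3′ end and kept their seed, while csi-MIR-472 of grapefruit lacked the 5′ end and so had another seed. It rested on 12 reads in grapefruit.

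The single name whose sequences differed inside was aau-MIR-168, with 13.7 RPM in grapefruit and 16.5 RPM in orange.
aau-MIR-168 in grapefruit: cagttgatgcaaggcgggcc
aau-MIR-168 in orange: cagttgatgcaaggcgggacc
In both fruits 18 bases of it were the exact reverse complement of mtr-MIR-168c-3p, which was the only pair of names in grapefruit with such a run of 15 bases or more. Its share of the remaining level did not separate the fruits beyond counting error (ratio 1.19, 0.663–2.03).

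The names that both fruits listed held most of the level of each. The 52 shared names were 80% of the grapefruit list and 46.8% of the orange list, and held 99.7% of the level in grapefruit and 97.0% in orange. By family 37 were shared, which is 86.0% of the families of grapefruit and 71.2% of those of orange. The 10 highest names other than fragment-like held 88.5% of the remaining level in grapefruit and 85.3% in orange, and 5 of them stood in both lists: gma-MIR-166h-3p, csi-MIR-482a-3p, mtr-MIR-159a, aly-MIR-166h-3p and csi-MIR-3952.

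The 13 names in grapefruit alone summed to 631 RPM, or 0.303% of its level. At 20 RPM or more these were bdi-MIR-5059, zma-MIR-2275c-5p with 99.1 RPM and gma-MIR-393i with 21.7 RPM. At equal RPM every one of the 13 would have had at least 5 reads in orange, which had more reads behind its RPM. gma-MIR-393i was unlisted in orange by name only, since mtr-MIR-393a of orange, with 46.3 RPM, had the same sequence.
gma-MIR-393i in grapefruit: tTCCAAAGggatcgcattgatc
mtr-MIR-393a in orange: tTCCAAAGggatcgcattgatc
MIR-393 acts on the auxin receptors TIR1 and AFB.

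The 59 names in orange alone summed to 1154 RPM, or 2.98% of its level, and 41 of them belong to families that grapefruit listed under another name. The highest was ptc-MIR-159d with 405 RPM, followed by tcc-MIR-827 with 195 RPM, cme-MIR-399g with 110 RPM and osa-MIR-399j with 57.3 RPM. The others at 20 RPM or more were aly-MIR-157d-3p (33.3 RPM), tcc-MIR-399e (24.6 RPM), gma-MIR-171j-5p (22.9 RPM), ath-MIR-858b (22.5 RPM) and ath-MIR-157c-5p (21.5 RPM), beside mtr-MIR-393a. tcc-MIR-827 differed only at the ends from ath-MIR-827 of grapefruit (147 RPM), and osa-MIR-399j only at the ends from mtr-MIR-399l of grapefruit (4.03 RPM). ptc-MIR-159d differed from its nearest grapefruit sequence in its first base and lacked its last base, and cme-MIR-399g had no near one. Of the 59 names 1 had the same sequence as a grapefruit name and 3 differed from one only by added or missing end bases. Another 11 differed by 1 base within the overlap, which in some was its first or last base. The remaining 44 had no near sequence in grapefruit. ath-MIR-858b belongs to a family that acts on MYB factors of flavonoid synthesis. At equal RPM 31 of the 59 would have had fewer than 5 reads in grapefruit, which limits what their absence there can say.

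Among all 55 pairs of libraries, grapefruit and orange were close by name and far by level. They shared 41.9% of the names that either listed, the second highest after pea and soybean with 50.0%, against a median of 19.6% over the pairs. The smaller of the shares of each name, summed over names, came to 16.3%, which was place 39 of 55 (median 20.1%). Without the fragment-like names the sum was 54.5% and the pair took place 3, with 38.6% of names shared. By family the pair shared 63.8%, the highest of all pairs. Without the csi names the places were 2 and 41, so the closeness by name did not rest on them. Pairs share libraries, and their places are a description.

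**Figure D5:**
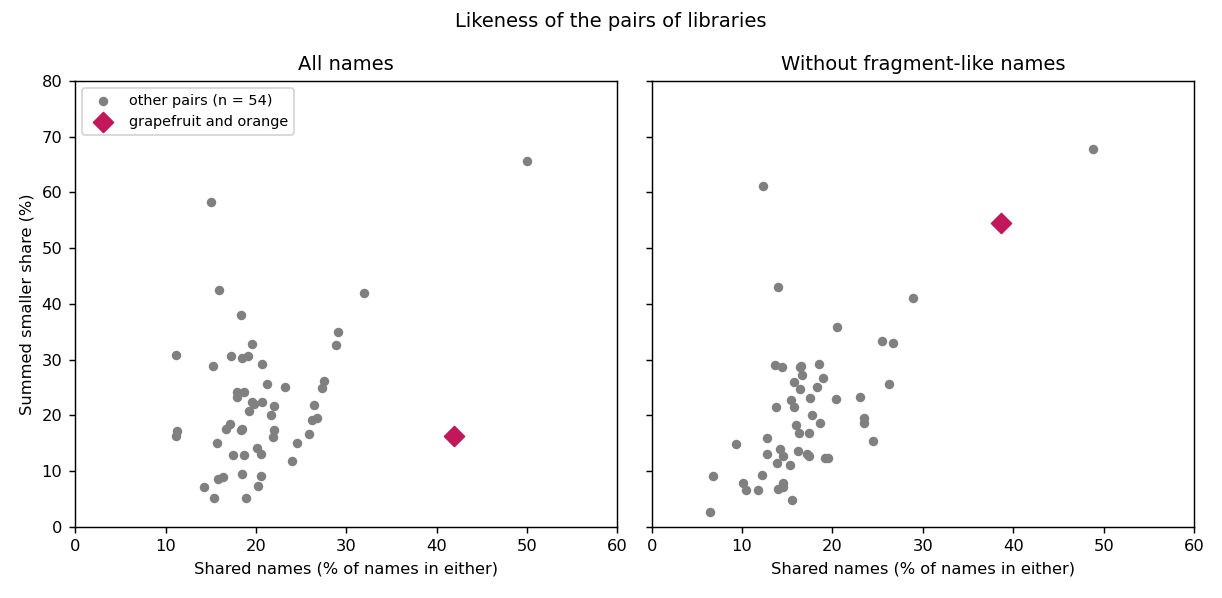
Shared names in % of the names in either library (x axis) against the summed smaller share in % (y axis) for the 55 pairs of libraries, with all names on the left and without fragment-like names on the right. The citrus pair, a diamond, moves from 16.3% with all names up to 54.5% without them and stays near 40% on the x axis (41.9% and 38.6%).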

How the data were processed

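Small RNA of EPDELNs was sequenced in 1 library per plant. The authors filtered out adaptors, repeats and reads of low quality. They used MIRPIPE to match the rest, at up to 2 mismatches and without a genome, to mature plant sequences in miRBase 21. Levels in RPM were deposited with the most abundant sequence of each name. All 950 values above 0 were the same in the merged table and the files of single libraries (relative difference up to 1e-06), and all were whole multiples of 1 read within 0.01 read, from which reads were recovered. No count model was used.

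Families are names with the same number. The fragment-like families were, by level in grapefruit, MIR-6478, MIR-5054, MIR-8175, MIR-5072, MIR-8155, MIR-5077, MIR-2916, MIR-5059, MIR-6300 and MIR-5368, with MIR-894 in neither fruit. Shares have Wilson 95% intervals and ratios of reads exact intervals from the Clopper-Pearson method, checked on simulated data. A ratio is grapefruit over orange. With 1 library a plant, no test was made and called means past 2-fold. Named are the fragment-like and csi names, the 10 highest other names of each library, shared names past 5-fold, the pairs of arms, names whose sequences differ inside, names of 1 fruit at 20 RPM or more, and, chosen after their values were seen, the other members given with values. The members and lists were chosen with earlier results of these data known. Alternatives were other minimum reads, lengths, scales, families and fold limits. The tools were pandas 2.3.3 with numpy 2.4.6 on Python 3.11.15, scipy 1.17.1 for intervals and, for figures, matplotlib 3.10.9.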

Additional observations from a re-analysis of the deposited data

How the results depend on the processing

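Of 69 alternatives 40 left a value within its counting error or a count within 1.5 times, and 29 moved it. Which fruit had more names past 2-fold turned from orange (15 in grapefruit and 18 in orange) to grapefruit without gma-MIR-166h-3p (19 and 11) and when scaled to the median ratio (18 and 12). The fragment-like share was 78.0% in grapefruit and 3.88% in orange with listed sequences of 18 nt or more, 87.8% and 4.27% with every name ending in CCA counted, and 80.7% and 0.952% without the highest such name. Names in grapefruit alone numbered 7 at 10 reads or more, 6 as families and, in an alternative added after seeing the data, 29 as listed sequences under any name. Names in orange alone numbered 28 at the smallest grapefruit RPM and 15 as families. Names 2-fold higher in grapefruit numbered 0 by share of the whole level, 9 by RPM, 3 per high quality read, 8 as families and 6 at 4-fold. Those 2-fold higher in orange numbered 38 by share of the whole level, 29 per high quality read, 11 without gma-MIR-166h-3p and 11 at 4-fold. The 3 further alternatives added after seeing the data, which ignored end differences, asked for the whole interval past 2-fold (11 in grapefruit and 14 in orange) or also dropped names ending in CCA, stayed within these limits. The csi share was 18.01% in grapefruit and 32.2% in orange without fragment-like names, and 31.1% in orange with all names of the csi families. Sequences of 20 to 22 nt held 98.9% and 99.4% without fragment-like names, and 78.5% and 86.5% of names each counted once. The citrus pair took place 1 by shared families and place 3 by the summed smaller share without fragment-like names. The cause of these moves was not tested beyond what each alternative leaves out. No paired analysis was possible because each plant had 1 library. Grapefruit had 1241721 reads behind its RPM, against 4836597 in orange, so the low names of grapefruit carry the wider intervals.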

Other observations

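Stretches of exact complementarity between names of 1 library were more common in orange. Beside mtr-MIR-168c-3p with aau-MIR-168, 5 pairs of names in orange shared a complementary run of 15 bases or more, among them zma-MIR-399f-5p with osa-MIR-399j (20 bases) and with ptc-MIR-399e (19 bases), and mtr-MIR-396b-3p with zma-MIR-396g-5p (18 bases). Orange listed more names, and no test was made.

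The fragment-like sequences differed in how widely other plants listed them. That of ptc-MIR-6478 was the same in grapefruit and orange and in none of the other 7 libraries that listed the name. That of bdi-MIR-5054 was the same in grapefruit and 7 of the 10 other libraries, orange among them. The grapefruit sequence of ath-MIR-8175 was also found in 7 other libraries, while the longer orange sequence was found in none.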
